A study of Xenopus laevis with 12 samples.

Results

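The genes described here were itln1, otogl2, fut6, vill and rasd1, read by 9 probe sets of the 15503 tested on the Affymetrix Xenopus laevis array. They were found by gene symbol in the array's annotation after the homeolog ending (.L or .S, for the 2 subgenomes of this tetraploid frog) had been removed, and they were 5 of 6505 gene names. The array carried 1 probe set for itln1, 4 for otogl2, 1 for fut6, 2 for vill and 1 for rasd1, and all 9 were kept, since no filter on low signals was applied. The genes were chosen by differences in signal between groups of these same arrays, and which comparison led to the choice is not recorded. Their levels and differences are therefore a description and carry no p-values. Where the fit over all probe sets put a member past the threshold, this is given as a count beside the share of all probe sets, and it is not a test of these genes.

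The RNA came from animal caps, explants of the still pluripotent roof of the Xenopus laevis blastula, on 4 groups of 3 arrays. Untreated caps of uninjected embryos are called C, and caps of uninjected embryos cultured with 10 ng/ml activin and 0.0001 M retinoic acid are called AcRA. The lhx1-AS group held untreated caps of embryos injected at the 2-cell stage with 800 pg of lhx1-AS, a DEED-modified antisense oligonucleotide against lhx1 RNA, and the lhx1-AS/AcRA group held caps of such embryos cultured with activin and retinoic acid. Experiments numbered I, II and III gave 1 array to every group, and 12 caps were pooled for an RNA. Since no caps were injected with a control oligonucleotide, loss of lhx1 and the injection itself cannot be told apart. The labels place the harvest when whole embryos of the same batch had reached stage 12.5, while the study's results section gives a later stage.

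Left to itself, an animal cap turns into epidermis under the influence of BMP signals, whereas activin diverts its cells to mesoderm and endoderm. The outer layer of the Xenopus embryonic epidermis is a mucociliary epithelium, in which mucus-secreting goblet cells lie among multiciliated cells, ionocytes and small secretory cells. Mucus is made of large glycoproteins that are glycosylated in the Golgi, stored in granules near the apical surface and released over the skin. itln1 encodes an intelectin, a secreted lectin known in Xenopus as the embryonic epidermal lectin, and otogl2 encodes a large secreted protein of the otogelin family, which is related to the gel-forming mucins. fut6 encodes a fucosyltransferase, an enzyme that adds fucose to glycans, and vill encodes villin-like, an actin-binding protein of the villin and gelsolin family. rasd1 encodes a Ras-like small GTPase, first known in mammals as a gene induced by glucocorticoid.

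Probe sets gave 1 signal each on a linear scale, and the arrays had been scaled to a common mean of 500.1 after trimming 2% at each end. Array medians lay between 126 and 151 in the uninjected groups and between 108 and 124 in the injected ones, and arrays of a group correlated with each other at 0.869 to 0.913 (Pearson's r of log2 signal over all probe sets). The targeted RNA itself was not lower on the injected, induced arrays. lhx1 had a signal of 316, 823 and 779 in AcRA and of 1144, 991 and 1614 in lhx1-AS/AcRA, so the last group is called by its label only. In bulk explants, fewer cells of a type and less RNA per cell cannot be told apart. Where nothing in the labels says that replicates came from separate clutches, p-values measure the spread between these arrays only.

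The plot of member signals shows the pattern that most of these probe sets shared.

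**Figure D1:**
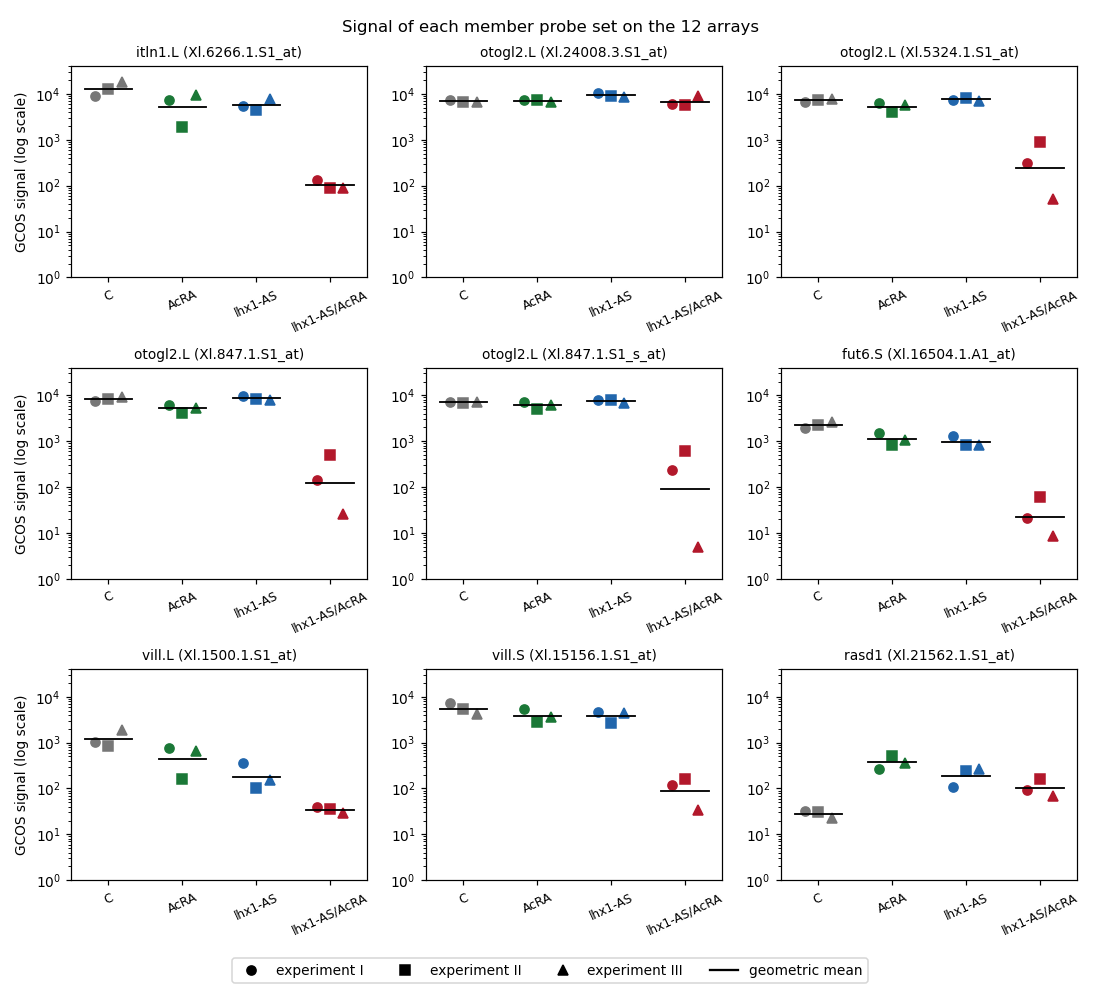
Signal of each of the 9 probe sets on the 12 arrays (log axis), with 1 panel for each probe set, groups along the horizontal axis, 1 symbol for each experiment and a line at the geometric mean. In 7 panels the lhx1-AS/AcRA arrays lie below those of the other groups, in the panel of otogl2 Xl.24008.3.S1_at the groups are close to each other, and in the panel of rasd1 the C arrays are lowest.

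The secreted lectin itln1 (itln1.L, probe set Xl.6266.1.S1_at) had signals of 9013, 12909 and 18613 on the C arrays of experiments I, II and III. On the AcRA arrays it had 7519, 1889 and 9681, and on the lhx1-AS arrays 5366, 4554 and 7692. In the group labelled lhx1-AS/AcRA its signals were 134, 88.5 and 88.3. The last 3 were below those of the other 9 arrays, while AcRA overlapped with C through the array of experiment III. The lowest C array stood at percentile 99.1 of all probe sets on its array, and the lhx1-AS/AcRA arrays stood at percentiles 42.5 to 53.8. Mean log2 signal in lhx1-AS/AcRA was 5.67 ± 0.48 (limma standard error) lower than in AcRA, a ratio of 50.8 between geometric means. The AcRA response, the log2 difference on adding activin and retinoic acid, was -1.33 ± 0.48 in uninjected caps and -5.82 ± 0.48 in injected caps. The antisense alone gave a log2 difference of -1.18 ± 0.48 against C.

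The otogelin family gene otogl2 (otogl2.L) was read by 4 probe sets, of which 3 had the same pattern and 1 did not. Xl.847.1.S1_at had signals of 7608, 8513 and 9041 in C, of 6202, 4221 and 5398 in AcRA and of 9906, 8452 and 7741 in lhx1-AS. In lhx1-AS/AcRA it had 139.5, 493 and 25.5. The injected, induced arrays were below the other 9, and the AcRA arrays were below the C arrays without overlap. The log2 difference of lhx1-AS/AcRA from AcRA was -5.43 ± 0.68, and those of AcRA and lhx1-AS from C were -0.68 ± 0.68 and 0.05 ± 0.68. These errors pool the spread of all 4 groups, which was uneven. The SD of log2 signal was 0.13 in C, 0.28 in AcRA, 0.18 in lhx1-AS and 2.14 in lhx1-AS/AcRA.

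Xl.847.1.S1_s_at, designed on the same transcript as Xl.847.1.S1_at, had between 5043 and 8011 on the 9 arrays of the other groups and 239, 619 and 5.01 in lhx1-AS/AcRA. Its log2 difference from AcRA was -6.08 ± 1.14. Xl.5324.1.S1_at, from another transcript sequence, had between 3947 and 8377 on those 9 arrays and 310.5, 891 and 51.2 in lhx1-AS/AcRA, a log2 difference from AcRA of -4.44 ± 0.67. All 3 probe sets were lowest on the injected, induced array of experiment III and next lowest on that of experiment I. The lhx1-AS arrays overlapped with the C arrays in each of them, with log2 differences of 0.05 to 0.09.

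The other probe set annotated otogl2.L, Xl.24008.3.S1_at, stayed at a high signal everywhere. It had 7314, 6764 and 6709 in C, 7363, 7398 and 6836 in AcRA, 10729, 9228 and 8640 in lhx1-AS and 5896, 5837 and 8925 in lhx1-AS/AcRA. Its log2 difference of lhx1-AS/AcRA from AcRA was -0.09 ± 0.19, and the groups overlapped. It shares its cluster number, 24008, with Xl.24008.1.A1_at, which is annotated srp68.L, a subunit of the signal recognition particle. The srp68.L probe set had 5378 ± 294 in C, 5346 ± 150 in AcRA, 6648 ± 311 in lhx1-AS and 5587 ± 1460 in lhx1-AS/AcRA (SD, n = 3). Whether Xl.24008.3.S1_at reads otogl2 RNA was not tested, and the values of otogl2 given below as its own come from the other 3 probe sets unless it is named.

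The fucosyltransferase gene fut6 (fut6.S, Xl.16504.1.A1_at) had signals of 1958, 2230 and 2691 in C, of 1485, 815 and 1086 in AcRA and of 1296, 822 and 830 in lhx1-AS. In lhx1-AS/AcRA it had 20.7, 59.6 and 8.58. Every C array was above every AcRA and lhx1-AS array, these 2 groups overlapped with each other, and the injected, induced arrays were below all. The log2 differences from C were -1.05 ± 0.52 in AcRA and -1.24 ± 0.52 in lhx1-AS. The log2 difference of lhx1-AS/AcRA was -5.64 ± 0.52 from AcRA and -5.45 ± 0.52 from lhx1-AS.

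The villin-like gene was read on both subgenomes. vill.S (Xl.15156.1.S1_at) had signals of 7472, 5353 and 4273 in C, of 5318, 2874 and 3684 in AcRA, of 4642, 2734 and 4326 in lhx1-AS and of 117, 164 and 33.8 in lhx1-AS/AcRA. The first 3 groups overlapped and the last was below them, with a log2 difference of -5.47 ± 0.46 from AcRA. vill.L (Xl.1500.1.S1_at) had 1010, 847 and 1920 in C, 748, 161 and 667 in AcRA, 361, 105 and 157 in lhx1-AS and 38.8, 35.0 and 29.5 in lhx1-AS/AcRA. The lhx1-AS arrays of vill.L were all below its C arrays, by 2.70 ± 0.57 on the log2 scale, while those of vill.S differed from C by -0.55 ± 0.46. AcRA and lhx1-AS overlapped in vill.L. In vill.L the difference of the AcRA responses was -0.95 ± 0.81 and its sign varied, with -2.79, 0.81 and -0.88 in experiments I, II and III. In vill.S it was -4.92 ± 0.66, with all 3 experiments below 0. vill.L was already low in lhx1-AS and stood at percentiles 17.3 to 31.5 in lhx1-AS/AcRA, so a fall as large as that of vill.S could hardly show. The difference between the homeologs was not tested.

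rasd1 (Xl.21562.1.S1_at) did not share the pattern of the epidermal genes. It had signals of 32.8, 30.2 and 22.7 in C, of 270, 516 and 367.5 in AcRA, of 107, 243 and 262 in lhx1-AS and of 93.0, 161 and 67.9 in lhx1-AS/AcRA. The C arrays were the lowest of the experiment, at percentiles 14.4 to 27.7 of all probe sets on their arrays. The log2 difference from C was 3.72 ± 0.47 in AcRA and 2.75 ± 0.47 in lhx1-AS. In injected caps the AcRA response was -0.91 ± 0.47, and the groups overlapped. lhx1-AS/AcRA was below AcRA by 1.89 ± 0.47 on the log2 scale with no overlap, which is still above every C array. In uninjected caps rasd1 was lower without treatment, which goes against calling it a gene of secretory epidermis. Injected caps did not repeat that order, with 204 ± 84.2 in lhx1-AS and 107 ± 48.1 in lhx1-AS/AcRA (SD, n = 3).

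The plot of differences sets the 5 comparisons side by side for the 9 probe sets.

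**Figure D2:**
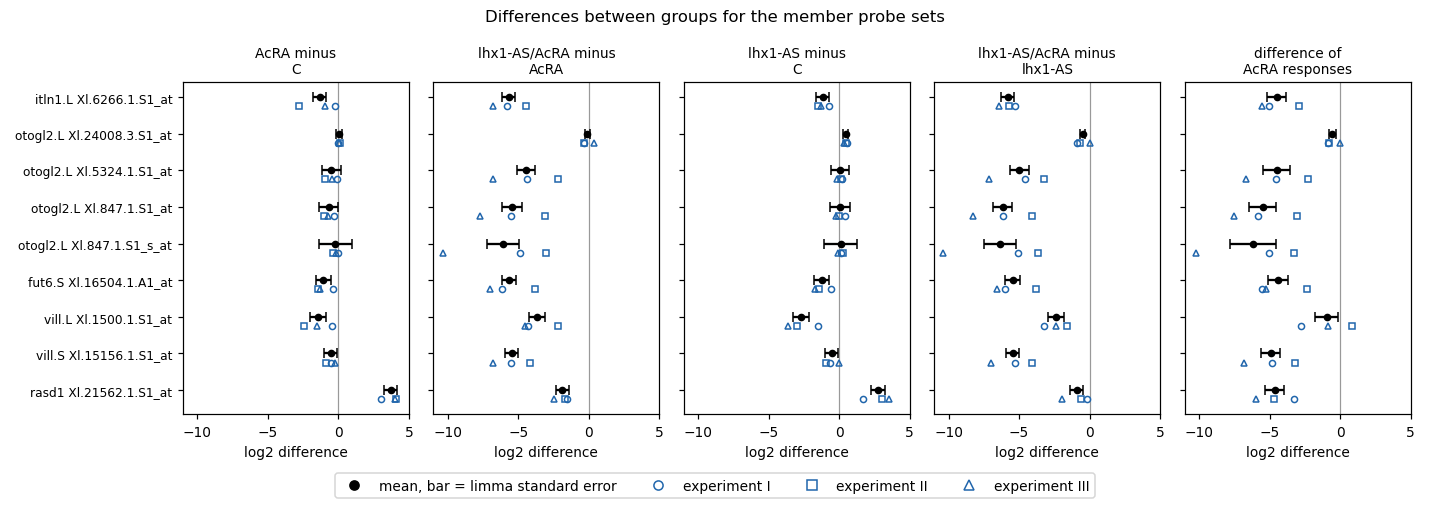
Log2 differences between groups for the 9 probe sets, with 1 panel for each comparison. Filled points are means with limma's standard error, and open symbols are the differences within experiments I, II and III. In lhx1-AS/AcRA against AcRA, 8 of the 9 means lie between -1.89 and -6.08, and Xl.24008.3.S1_at lies at -0.09.

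Calls were made at an adjusted p under 0.05 (limma, Benjamini-Hochberg over 15503 probe sets). In lhx1-AS/AcRA against AcRA, 8 of 9 member probe sets and all 5 genes were called lower, where 6.94% of all probe sets were, and 0 were called higher, where 2.70% were. The median log2 difference of the members was -5.43 beside 0.02 over all probe sets. The groups did not overlap in these 8, where the array held 16.4% of probe sets lower without overlap and 12.8% higher. Since the members were picked with these results known, nothing is read from the counts here or below. The arrays that set the call of rasd1 were several, since it was lost without AcRA II or III or without lhx1-AS/AcRA I or III, with log2 differences of -1.60 to -1.89 then. The other 7 calls stood without any 1 array.

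Against lhx1-AS, the lhx1-AS/AcRA arrays had 7 member probe sets of 4 genes called lower (4.09% of all probe sets) and 0 higher (4.00%). The same 7 did not overlap between these groups (10.6% of all probe sets lower and 10.1% higher without overlap), and the uncalled members were rasd1 and Xl.24008.3.S1_at. The call of vill.L was lost without lhx1-AS I (-1.91) or lhx1-AS/AcRA III (-2.30). It was also lost with 64 added to the signal (-1.35) and when the fit had no variance trend. In AcRA against C, only rasd1 was called higher (3.09% of all probe sets), and 0 members were called lower (2.62%), although each of the other 4 genes had log2 differences below 0 in all 3 experiments, apart from Xl.24008.3.S1_at. The groups did not overlap in otogl2 Xl.5324.1.S1_at and Xl.847.1.S1_at, fut6 and vill.L, which were lower (10.7% of all probe sets), and in rasd1, which was higher (11.1%). With the experiment as a block, itln1 was called lower in that comparison.

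In lhx1-AS against C, rasd1 was called higher (2.52% of all probe sets) and vill.L lower (4.47%). The groups did not overlap in itln1, fut6 and vill.L, which were lower (14.3% of all probe sets), and in rasd1 and otogl2 Xl.24008.3.S1_at, which were higher (11.8%). The call of vill.L was lost without C III (-2.35), lhx1-AS II (-2.31) or lhx1-AS III (-2.60). itln1 was called as well without AcRA II, an array outside this comparison that takes part in the estimate of the spread.

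The difference of the AcRA responses between injected and uninjected caps had 5 member probe sets called lower, 1 for each gene (0.271% of all probe sets), and 0 higher (0.168%). Their log2 values were -4.49 ± 0.68 for itln1, -5.48 ± 0.97 for otogl2 Xl.847.1.S1_at, -4.40 ± 0.73 for fut6, -4.92 ± 0.66 for vill.S and -4.63 ± 0.66 for rasd1. The same sign stood for a different course in rasd1, whose signal was higher with AcRA in uninjected caps, while that of the other 4 was lower with AcRA in injected caps. The call of otogl2 was lost without any 1 of 7 arrays, namely C I or III, AcRA I or III, or any lhx1-AS array (-5.36 to -5.56), and that of fut6 without C I (-4.29) or AcRA I (-4.18). otogl2 Xl.5324.1.S1_at and Xl.847.1.S1_s_at had differences of -4.50 ± 0.95 and -6.17 ± 1.61 and were not called. Both were called without lhx1-AS/AcRA II or without lhx1-AS/AcRA III.

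The arrays of a group did not stand in the same order in every group, but several member probe sets shared an order within one. Of the 8 probe sets other than rasd1, which read only itln1, otogl2, fut6 and vill, 7 had their lowest AcRA signal in experiment II. Their highest was in experiment I for 6. In lhx1-AS/AcRA, 7 of the 8 were lowest in experiment III and 5 highest in experiment II, and the ratio between the extremes was 124 for otogl2 Xl.847.1.S1_s_at, 19.3 for Xl.847.1.S1_at, 17.4 for Xl.5324.1.S1_at, 6.94 for fut6, 4.85 for vill.S, 1.52 for itln1 and 1.31 for vill.L. The ratio of 124 rests on a low signal of 5.01 in experiment III, at percentile 3.69 of its array. For itln1 experiments II and III hardly differed, at 88.5 and 88.3. No share over all probe sets was taken for these orders. Other transcripts moved on the same arrays. The summed signal of 12 genes for epidermal keratins and barrier proteins was 16820, 27921 and 4037 on the lhx1-AS/AcRA arrays of experiments I, II and III, and lhx1 was brightest of the group in experiment III, at 1614. The part of either in the values of the members was not tested.

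How alike the members varied was measured as the root mean square difference of their log2 signals after centring each on its mean over the 12 arrays. The nearest pair was fut6 and vill.S at 0.46, followed by otogl2 Xl.847.1.S1_at and Xl.5324.1.S1_at at 0.50 and by fut6 and otogl2 Xl.847.1.S1_at at 0.58. itln1 stood at 0.78 from fut6 and at 0.83 from vill.S. The homeologs of vill were 1.34 apart, farther than vill.S was from fut6, itln1 or otogl2 Xl.847.1.S1_at. rasd1 was at 1.43 from Xl.24008.3.S1_at and at 2.57 to 3.26 from all the others. The 1.43 shows no likeness, since the SD of log2 signal over the arrays was 0.26 for Xl.24008.3.S1_at and 1.44 for rasd1. A distance to a nearly flat probe set is about the spread of the other. These distances describe 12 arrays that share 3 experiments and 4 treatments. The members were chosen by differences on the same arrays, so nearness among them was partly set by that choice and is no support for them.

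Among 6312 probe sets with 1 gene symbol and a mean log2 signal of at least 6, those nearest to itln1 were LOC398451 (0.75), the keratin krt12.4.S (0.76, Xl.2924.1.S1_at) and fut6, where the median over all was 2.84. That median is near the SD of itln1 itself over the arrays, 2.78. Nearest to fut6 were vill.S, aldh1l1.L (0.52), an enzyme of folate metabolism, and otogl2 Xl.847.1.S1_at, and nearest to vill.S were fut6, krt12.4.S (0.55) and otogl2 Xl.847.1.S1_at (0.59). For otogl2 Xl.847.1.S1_at, taken in addition after its values had been seen, they were the keratin krt70.L (0.46), the other otogl2 probe set and fut6. With 64 added to the signals the order changed. From fut6, aldh1l1.L was then in place 1, vill.S in 11 and otogl2 Xl.847.1.S1_at in 40. From itln1, krt12.4.S was in place 1, fut6 in 4 and LOC398451 in 9. From vill.S, krt12.4.S, otogl2 Xl.847.1.S1_at and fut6 were in places 1, 2 and 3. krt12.4.S averaged 17218 in C and 484 in lhx1-AS/AcRA, and its log2 difference of lhx1-AS/AcRA from AcRA was -4.65 ± 0.29. The corresponding values were -4.81 ± 0.63 for aldh1l1.L and -6.22 ± 0.68 for LOC398451. These genes were picked for their likeness to the members on the same arrays, so their differences are given with no test.

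The brightest probe set of otogl2, Xl.24008.3.S1_at, had other neighbours, namely the casein kinase csnk1d.S (0.13), the RNA helicase ddx54.L (0.16) and abcf3.S (0.17), with srp68.L seventh at 0.17. The median over all was 0.59. Nearest to rasd1 were ventx2.1.L (0.68) and ventx2.2.L (0.78), homeobox repressors induced by BMP in the ventral Xenopus embryo, and ski.S (0.89), a repressor of TGF-beta signalling, beside a median of 1.53. With 64 added to the signals, ventx2.1.L, ventx2.2.L and ski.S were in places 10, 1 and 4. Their log2 differences in AcRA against C were 2.75 ± 0.47, 3.36 ± 0.48 and 2.48 ± 0.32, and those of lhx1-AS/AcRA from AcRA were -0.70 ± 0.47, -1.05 ± 0.48 and -0.95 ± 0.32, again with no test because likeness to rasd1 chose them.

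Lists of genes of the same functions were then read in the same fit, with each gene represented by its brightest probe set and the members left out. Some genes said below to rise or fall had other probe sets that were not called with them. In lhx1-AS/AcRA against AcRA, 1 of 2 was called for krt19, ca2, tekt2, pkp3, gata4, gmppb and sdha, and 1 of 3 for ag1. For ppl, otx2 and id3, 2 of 3 were. The lists too were chosen with earlier results of these data known. Their counts and adjusted p-values therefore describe these arrays and are no independent support for the members. In lhx1-AS/AcRA against AcRA, 1 of 8 measured genes of goblet cells and mucus secretion fell and 0 rose (median log2 difference -0.48, over all genes 0.03). The 1 that fell was creb3l2, a transcription factor of the secretory pathway, at -1.39 ± 0.25 (limma, adjusted p = 0.00282). Of the other markers of this list, agr2, a disulfide isomerase of mucous cells, averaged 3133 ± 1452 in C, 59.5 ± 28.7 in AcRA, 4432 ± 1694 in lhx1-AS and 49.5 ± 7.03 in lhx1-AS/AcRA (SD, n = 3). In AcRA against C, 1 of the 8 fell and 1 rose, with a median of 0.16. agr2 fell by 5.77 ± 0.43 on the log2 scale (limma, adjusted p = 5.15e-06) and fetub, a fetuin, rose by 4.38 ± 0.83 (limma, adjusted p = 0.00467). xbp1, a regulator of secretory cells, averaged 1882 ± 761 in C and 2235 ± 539 in lhx1-AS/AcRA. ano1, a chloride channel, averaged at most 41.9 in any group. Further goblet markers, such as otogl, spdef and the muc genes, were not analysed here.

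Of 12 measured keratin and barrier genes, 4 fell, 1 rose and 7 did not pass in lhx1-AS/AcRA against AcRA (median -1.74). periplakin (ppl) fell by 3.58 ± 0.61 on the log2 scale (limma, adjusted p = 0.00188), envoplakin (evpl) by 3.46 ± 0.43 (limma, adjusted p = 2.27e-04) and the keratin krt12.5 by 3.39 ± 0.81 (limma, adjusted p = 0.0164). krt12.4 fell by 2.51 ± 0.33 at its brightest probe set. krt19 was higher by 2.73 ± 0.61 (limma, adjusted p = 0.0107), and the uroplakin upk1a had a difference of -2.77 ± 0.85 that did not pass (limma, adjusted p = 0.0567). Without AcRA I the calls of krt12.5 and krt19 were lost, at -3.29 and 2.51.

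Of 18 measured transcription factors of surface ectoderm, 6 fell and 2 rose (median -0.66). dlx3, a homeobox gene of non-neural ectoderm, fell by 3.54 ± 0.53 on the log2 scale (limma, adjusted p = 8.01e-04), the BMP target msx1 by 3.10 ± 0.33 (limma, adjusted p = 8.14e-05), the grainyhead factor grhl1 by 3.04 ± 0.46 (limma, adjusted p = 8.43e-04) and klf17 by 2.80 ± 0.59 (limma, adjusted p = 0.00794). tp63, a factor of the basal epidermis, averaged 39.0 ± 24.6 in AcRA and 10.1 ± 8.42 in lhx1-AS/AcRA and did not pass. Others of the list had higher means in lhx1-AS/AcRA. tcf7l1 averaged 413 ± 90.0 in AcRA and 1870 ± 576 in lhx1-AS/AcRA, and hes1 164 ± 31.6 and 622 ± 211 (SD, n = 3). In the difference of the AcRA responses, 5 of the 18 were called lower and 0 higher, and 1 was called lower after quantile normalization or after scaling the arrays to 1 median.

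Genes with roles near those of fut6 and vill were mixed. Of 17 measured genes of fucose and O-glycan synthesis, 4 fell and 0 rose (median -0.64), and 2 fell under either of the other scalings. The galactosyltransferase b4galt3 fell by 3.32 ± 0.35 on the log2 scale (limma, adjusted p = 7.39e-05) and galnt7 by 2.33 ± 0.31 (limma, adjusted p = 3.65e-04). b3gnt7 and fut1, a fucosyltransferase of another linkage, fell by 1.61 ± 0.44 and 1.38 ± 0.38, and their calls were lost without AcRA I (-1.25 and -1.29), among other arrays. gmds and gfus, which make the fucose donor, averaged 172 ± 68.7 and 81.8 ± 31.0 in AcRA and 111 ± 51.7 and 47.4 ± 27.7 in lhx1-AS/AcRA and were not called. fut8 did not pass either, at -1.61 ± 0.66.

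Of 15 measured genes of the villin and gelsolin family and apical actin, 5 fell and 0 rose (median -1.05), with 3 after quantile normalization and 2 after scaling to 1 median. eps8l1 fell by 3.05 ± 0.75, the myosin myo6 by 2.39 ± 0.54, flightless (flii) by 1.37 ± 0.35 and plastin (pls3) by 1.05 ± 0.29 on the log2 scale. All 4 calls were lost without AcRA I, at -2.67, -2.02, -1.18 and -0.96. myo6, flii and pls3 also fell in lhx1-AS against C, as vill.L was lower there, with log2 differences of -3.07 ± 0.54, -1.49 ± 0.35 and -3.01 ± 0.29. villin itself (vil1) averaged between 25.9 and 39.3 in the 4 groups, and gelsolin (gsn) had a difference of -1.62 ± 0.73 that did not pass.

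Of 17 measured Ras-like GTPases and regulators, the relatives of rasd1, 2 rose and 0 fell, with a median of 0.47. nras rose by 1.95 ± 0.41 on the log2 scale (limma, adjusted p = 0.00726) and rap2b by 0.59 ± 0.17, a call that was lost after quantile normalization and without AcRA I (0.53), among other arrays. rasd2, the nearest relative on the list, averaged between 13.6 and 45.9 and was not called. In AcRA against C, rasd1 was higher by 3.72 on the log2 scale (3.13 with 16 added to the signals and 2.24 with 64). There 0 of the 17 were called (limma), where 3.09% of all probe sets were called higher and 2.62% lower. At the looser threshold of an unadjusted limma p under 0.05, 1209 probe sets were higher and 1190 lower over all.

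The plot of calls by list gives the shares in both comparisons of the injected, induced arrays.

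**Figure D3:**
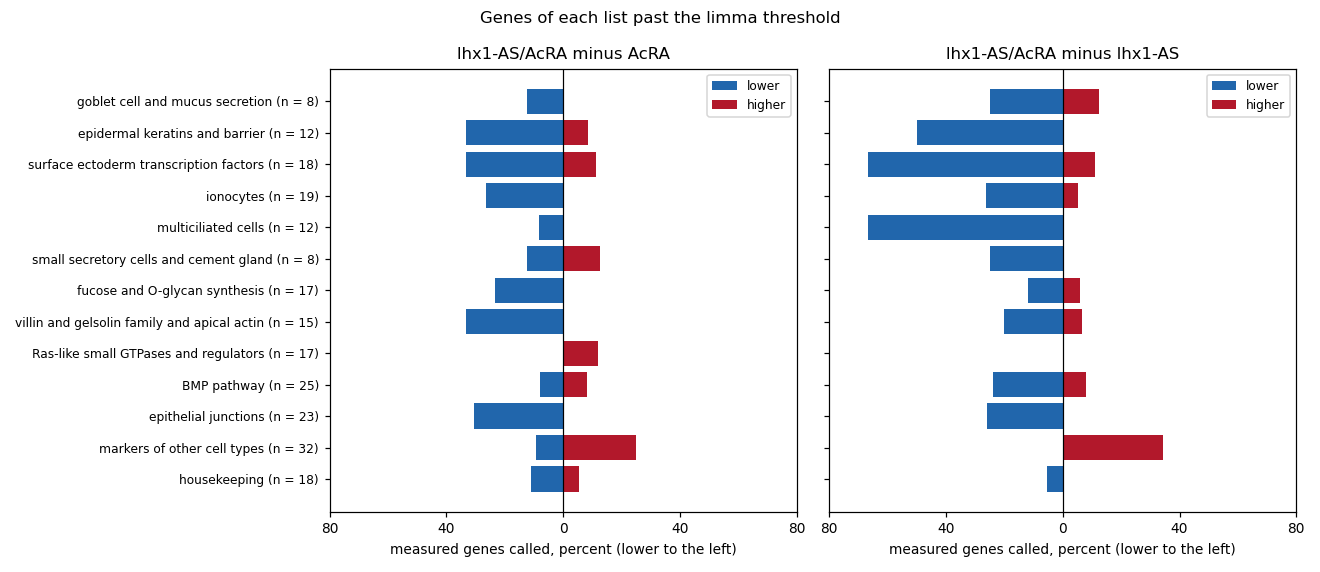
Percent of the measured genes of each list that were called higher (right) or lower (left) in lhx1-AS/AcRA against AcRA and against lhx1-AS, with the number measured beside each list. Of the 12 multiciliated genes 1 was lower in the first panel and 8 in the second, and of the 18 surface ectoderm factors 6 and 12.

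The other cell types of the skin did not all follow the members. Of 19 measured ionocyte genes 5 fell and 0 rose in lhx1-AS/AcRA against AcRA, led by the proton pump subunit atp6v1b1 at -7.78 ± 0.84 (limma, adjusted p = 8.47e-05), with atp6v0d2 at -2.95 ± 0.50 and the carbonic anhydrases ca2 at -2.90 ± 0.65 and ca12 at -2.50 ± 0.53. Some of these sizes rest on low signals. atp6v1b1 averaged 1756 ± 579 in AcRA and 15.3 ± 19.1 in lhx1-AS/AcRA, and ca2 21.6 ± 5.74 and 2.85 ± 0.38 (SD, n = 3). Under either of the other scalings 4 ionocyte genes fell. atp6v0a1 had -2.52 ± 0.77 and did not pass (limma, adjusted p = 0.0545). Others of the list had higher means in lhx1-AS/AcRA without a call. slc4a1 averaged 182 ± 15.4 in AcRA and 437 ± 191 in lhx1-AS/AcRA, and atp6v0c 4897 ± 727 and 5873 ± 1157. Of 12 multiciliated genes only tekt2, a tektin of the axoneme, fell in lhx1-AS/AcRA against AcRA (-4.86 ± 0.79, limma, adjusted p = 0.00138), whereas 8 fell in AcRA against C. The list summed to 8031 to 11728 in C, 2102 to 2956 in AcRA and 1663 to 2731 in lhx1-AS/AcRA. tekt1 averaged 40.3 ± 7.07 in AcRA and 23.3 ± 18.3 in lhx1-AS/AcRA and did not pass. In signals already low in AcRA, a further fall is hard to see. Of 8 genes of small secretory cells and the cement gland, the mucus-secreting organ of the head, ag1 fell by 1.23 ± 0.34, a call lost under both other scalings and without AcRA I (-0.96), and otx2 rose by 5.57 ± 0.54. otx2 is counted again below among the markers of other tissues, and agr2 is on both this list and the goblet list. otx2 averaged 2678 ± 997 in lhx1-AS/AcRA (SD, n = 3), where the list summed to 2303 to 4601. In AcRA against C, 3 of the 8 fell and 0 rose, ag1 by 2.84 ± 0.34 (limma, adjusted p = 1.39e-04). Of 23 junction genes 7 fell, led by cldn1 (-3.84 ± 0.91, and -3.50 without AcRA I, where the call was lost) and desmoplakin (dsp, -2.75 ± 0.48). pkp3 fell by 1.94 ± 0.40 and cldn4 by 1.93 ± 0.44, the latter a call lost without AcRA I (-1.74). dsc3 had a difference of 3.36 ± 1.54 at low signals and did not pass.

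In the BMP pathway, 2 of 25 genes rose and 2 fell in lhx1-AS/AcRA against AcRA, namely admp at 5.26 ± 0.73 and id3 at 1.15 ± 0.22, and id2 at -1.93 ± 0.46 and smad9 at -1.83 ± 0.48. The calls of id2 and smad9 were lost without lhx1-AS/AcRA I (-1.47 and -1.73), among other arrays. In AcRA against C, 11 of the 25 fell and 1 rose, among them bambi by 3.22 ± 0.53 and szl by 5.65 ± 0.81, both feedback inhibitors of BMP signalling in the ventral embryo.

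Of 32 measured markers of mesoderm, endoderm, organizer, neural and other tissues, 8 rose, 3 fell and 21 did not pass in lhx1-AS/AcRA against AcRA. Their summed signal was 2369 to 3332 on C arrays, 14303 to 18552 in AcRA, 2736 to 3816 in lhx1-AS and 36190 to 45735 in lhx1-AS/AcRA. The organizer gene gsc rose by 7.89 ± 1.15 on the log2 scale (limma, adjusted p = 6.83e-04), from 23.6 ± 17.5 to 4641 ± 2731, the endodermal gata4 by 4.73 ± 0.81 (limma, adjusted p = 0.00191), otx2 by 5.57 ± 0.54 (limma, adjusted p = 3.61e-05) and foxa4 by 4.38 ± 1.03 (limma, adjusted p = 0.0151), whose call was lost without AcRA I (3.94) or lhx1-AS/AcRA III (4.28). msgn1, a marker of presomitic mesoderm, averaged 210 ± 277 in AcRA and 11.7 ± 9.29 in lhx1-AS/AcRA and did not pass. Not all markers of the list were higher there. wnt8a averaged 2953 ± 644 in AcRA and 723 ± 576 in lhx1-AS/AcRA, cdx4 1343 ± 182 and 225 ± 246, and ncam1 314 ± 118 and 38.9 ± 26.1 (SD, n = 3). The summed signal of the surface ectoderm factors ran the other way, at 17216 to 23310 in C, 11340 to 14511 in AcRA, 23772 to 26658 in lhx1-AS and 5795 to 6847 in lhx1-AS/AcRA. The part of a different mix of cell types in the values of the members was not tested. Of 18 housekeeping genes, h4c4 rose and gmppb and sdha fell, the latter 2 being lost without AcRA I (-1.93 and -0.89), and their summed signal was 68868 to 84028 on the uninjected arrays and 84780 to 91335 on the injected ones.

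**Figure D4:**
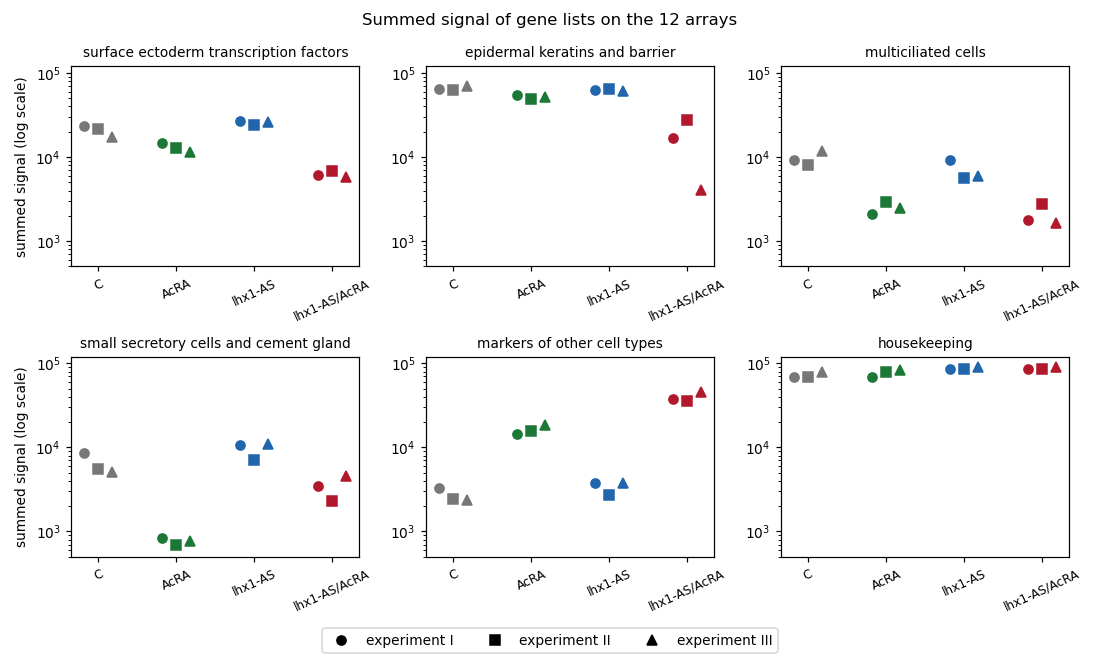
Summed signal of the measured genes of 6 lists on the 12 arrays (log axis), with groups along the horizontal axis and 1 symbol for each experiment. Markers of other cell types sum to 36190 to 45735 in lhx1-AS/AcRA and the surface ectoderm factors to 5795 to 6847, below every other array. The same otx2 probe set is summed in the panel of small secretory cells and cement gland and in that of other cell types.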

How the data were processed

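Gene expression was measured on 12 arrays in 4 groups. The authors deposited linear intensity values, the signals that GCOS had computed and scaled to the same trimmed mean on every array. Its version was not given in the sources read. Detection calls were not used here. Labels gave the groups and the experiment numbers. Values under 1 (596, 0.318%) were raised to 1 before log2. The array had 15611 probe sets, of which 108 controls stayed out of the fit. By the array's annotation, 9304 had 1 symbol, 195 had several and 6112 had none.

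Differences were fitted in R 4.3.3 by limma 3.58.1, with 4 group means, a variance trend and Benjamini-Hochberg adjustment over all probe sets tested at 0.05. Errors of log2 differences are limma's standard errors, which pool the spread of all 4 groups of a probe set. They do not give the spread of the compared groups alone. The fit was tested on simulated data. The members and the 13 gene lists were chosen with earlier results of these data known. All member probe sets were named, with the 3 probe sets nearest to the brightest one of each member gene. In lhx1-AS/AcRA against AcRA, each list gave up to 4 called genes with the largest differences and 1 that was not called. The uncalled tgm2, pitx1, grem1 and ldha came from this rule and are not described above. Their log2 differences from AcRA were -2.91, 1.89, -3.36 and 1.87 in lhx1-AS/AcRA. Named after their values were seen were krt12.4, agr2, xbp1, ano1, gmds, gfus, vil1, tcf7l1, hes1, slc4a1, atp6v0c, wnt8a, cdx4, ncam1 and srp68.L. The same holds for the genes named in AcRA or lhx1-AS against C. The list means are of 3 arrays with SD.

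Deviations from group means of arrays of the same experiment correlated at 0.152 to 0.269 over 18 pairs of different groups, and those of other pairs at -0.190 to -0.004 over 36, so the experiments pair the arrays. The fit was repeated after quantile normalization or scaling to 1 median, with 16 or 64 added to the signal, without the dimmest 40% of probe sets, with the experiment as a block, without the variance trend, on only the groups compared, without each array in turn, and as the methods' t-test.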

Additional observations from a re-analysis of the deposited data

Results flagged for a closer look

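In 5 member probe sets the difference of the AcRA responses between injected and uninjected caps was past the threshold of the fit over all probe sets (limma, adjusted p under 0.05), with log2 values of -4.49 for itln1.L, -5.48 for otogl2.L Xl.847.1.S1_at, -4.40 for fut6.S, -4.92 for vill.S and -4.63 for rasd1. The genes had been picked with these values known, so this is no support for them. Each difference had the same sign in all 3 experiments. The calls of otogl2.L Xl.847.1.S1_at and fut6.S were lost after quantile normalization. Without the variance trend, only the call of rasd1 stood.

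The same difference passed in 7 list genes named above. It was 4.35 for krt19, whose signal fell with AcRA in uninjected caps from 4583 ± 2025 to 261 ± 176 (SD, n = 3), and 3.98 for otx2. It was -3.11 for msx1, -3.22 for grhl1, -4.28 for klf17, -2.46 for b4galt3 and -2.38 for krt12.4 at its brightest probe set on the log2 scale. The calls of b4galt3 and krt12.4 were lost after quantile normalization and after scaling to 1 median. That of otx2 was lost after quantile normalization. Only 1 of the surface ectoderm factors was still called lower under either scaling, so at most 1 of msx1, grhl1 and klf17 kept its call.

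The keratin probe sets found as neighbours of itln1 and otogl2 also passed, at -4.33 for krt12.4.S (Xl.2924.1.S1_at) and -4.93 for krt70.L (Xl.23326.1.S1_at). Both had been chosen for their likeness to the members on the same arrays.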

How the results depend on the processing

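No member difference changed its sign under an alternative where it had been called, and 794 alternative values lay within the spread of the 3 experiments of the main one, with 17 outside it. Many of the 794 could not move, so their number does not measure stability. The block, the removal of dim probe sets and the loss of an array outside the comparison leave a log2 difference as it was. With the experiment as a replicate block, calls higher and lower were 820 and 797 in AcRA against C (1 member lower), 1082 and 1851 in lhx1-AS/AcRA against AcRA, 1149 and 1609 in lhx1-AS against C, 983 and 1030 in lhx1-AS/AcRA against lhx1-AS, and 104 and 135 in the difference of responses. As deposited and without the block they were 479 and 406, 419 and 1076, 391 and 693, 620 and 634, and 26 and 42. Beyond the AcRA call of itln1, the block added that of otogl2 Xl.5324.1.S1_at in the difference and changed no other member's call. Scaling to 1 median moved the median log2 difference of all probe sets to 0.26 in lhx1-AS/AcRA against AcRA, with 736 higher and 50.5% of calls lower (72.0% as deposited, 63.9% after quantile normalization), and to 0.24 in lhx1-AS against C, with 787 higher and 37.7% lower (63.9% and 53.2%). Quantile normalization left 3 members lower in the difference, namely itln1, vill.S and rasd1.

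With 16 added, 57 probe sets were higher in the difference. With 64 added, 87 were higher and 83 lower there, and 1 member was lower in AcRA and 2 in lhx1-AS against C. Adding 64 also shrank the log2 differences of the dimmer members, to -3.67 for fut6, -2.38 for vill.L and -1.39 for rasd1 in lhx1-AS/AcRA against AcRA and to 2.24 for rasd1 in AcRA against C, since a constant weighs most on low signals. The small differences of otogl2 Xl.5324.1.S1_at and Xl.847.1.S1_s_at in lhx1-AS against C, not called, were -0.14 and -0.11 after quantile normalization and 0.30 and 0.33 after scaling to 1 median. Without the variance trend, 272 were higher in lhx1-AS/AcRA against AcRA, 156 higher and 414 lower in lhx1-AS against C, and 13 and 7 in the difference (1 member lower, rasd1). With the compared groups only, 1 member was lower in AcRA against C and 3 in lhx1-AS, with 232 probe sets higher. The methods' t-test after Benjamini-Hochberg called 36 and 24 in AcRA against C (0 members higher), 0 and 0 in lhx1-AS/AcRA against AcRA (0 members lower), 0 and 0 in lhx1-AS against C (0 members either way) and 31 and 15 in lhx1-AS/AcRA against lhx1-AS (1 member lower). At an unadjusted limma p under 0.05, 1353 and 2153 passed in the second and 1448 and 1989 in the third of these. The methods give a p under 0.05 with a fold cutoff and name no adjustment. The adjusted t-test counts, made without a fold cutoff, are therefore not those of the study's own selection.

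Without 1 array, calls higher and lower were 336 to 560 and 227 to 460 in AcRA against C, 204 to 498 and 593 to 1230 in lhx1-AS/AcRA against AcRA, 141 to 441 and 309 to 813 in lhx1-AS against C, 469 to 616 and 473 to 626 in lhx1-AS/AcRA against lhx1-AS, and 15 to 30 and 19 to 90 in the difference. Members called lower were 7 to 8, 0 to 2, 6 to 7 and 3 to 7 in the last 4 of these and 0 in the first, and 1 was higher in AcRA and in lhx1-AS against C. Of 80 calls of named list genes, 27 were lost under an alternative other than the t-test, and 78 with it. The cause was not tested. The 3 arrays of a group limit the precision, and signals near the floor have no order.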
